A study of Mus musculus with 4 samples.

Results

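Transcripts of 10 serotonin receptor genes (Htr1a, Htr1b, Htr1d, Htr1f, Htr2a, Htr2c, Htr3a, Htr4, Htr5a and Htr7) were followed across the neurons of the mouse ventromedial prefrontal cortex (vmPFC). They were taken by name from the 31053 genes of the deposited single-cell count matrices, and all 10 had counts. Cells came from male C57BL/6 mice (labelled 8 weeks, the age at injection by the study's methods) whose brains had received 5 retrograde rAAV viruses, each carrying EGFP with its own barcode, in the agranular insula, dorsomedial striatum, mediodorsal thalamus, basolateral amygdala and lateral hypothalamus, so that vmPFC neurons with axons in a target could pick up its barcode. There were 3 libraries of unsorted cells, labelled mouse 1, mouse 2 and mouse 3, and 1 library of EGFP-positive cells sorted by flow cytometry from mice 4-6, which were pooled. Every mouse was injected, and uninjected controls were not analysed here.

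Serotonin reaches the cortex from the raphe nuclei and acts there through several receptor families. The Htr1 and Htr5 receptors couple to Gi/o proteins, which lower cyclic AMP and open potassium channels, the Htr2 receptors couple to Gq proteins and phospholipase C, Htr4 and Htr7 couple to Gs proteins, which raise cyclic AMP, and Htr3a is the core subunit of a cation channel. In cortex, Htr1a is known for silencing neurons, Htr2a for the action of psychedelic drugs on pyramidal cells, and Htr3a for marking a class of interneurons.

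The excitatory neurons were the 9368 cells that the study had kept and assigned to 7 subtypes, named by layer and a marker gene: L2/3-Calb1, L2/3-Rorb, L5-Bcl6, L5-S100b, L5-Htr2c, L6-Npy and L6-Syt6. Inhibitory neurons were the 1283 cells outside that set with at least 4 UMIs of Gad1 and Gad2, which make GABA, and at most 3 of the glutamate transporter gene Slc17a7. Mice 1, 2 and 3 gave 443, 453 and 382 of these inhibitory cells, and the sorted library gave 5, so levels in inhibitory cells rest on the unsorted mice. The defining markers matched the names: Slc17a7 was at 704 to 1255 counts per 1000000 UMIs (CPM) in the 7 subtypes and 11.9 in inhibitory cells, Gad1 was at 1.01 to 7.41 CPM in the subtypes and 1051 in inhibitory cells, and Tshz2, a marker of near-projecting layer 5 cells, reached 1110.1 CPM in L5-Htr2c and at most 10.8 in the other subtypes. The sorted library held 4 L5-Htr2c cells among 1603 excitatory cells, against 317 among 7765 in the unsorted mice. Libraries held 54749198 to 87841541 UMIs (unique molecular identifiers, which count each captured RNA molecule once), and pairs of libraries shared 5 to 30 cell barcodes, at most 0.403% of the smaller library.

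A level is the sum of a gene's UMIs over the cells of a group in 1 library, scaled to CPM by all UMIs of those cells, and 3 levels in a row are those of mice 1, 2 and 3. It is a count of 3' ends and does not scale with transcript length. It does not separate fewer cells with the transcript from less RNA in each cell, so the share of cells with at least 1 UMI is given beside it. L5-Htr2c cells and inhibitory cells held fewer UMIs (medians of 14549 and 13599.5) than L5-S100b cells (25561.5). The shares of Htr2c in L5-Htr2c cells and of Htr3a in inhibitory cells are therefore also given for cells thinned to 5000 UMIs. All other shares are unthinned and depend on depth. With thinning, Htr1f in L6-Syt6 fell from 55.1% to 17.0%, Htr2a in L2/3-Rorb from 66.3% to 27.5% and Htr7 in inhibitory cells from 15.5% to 6.29%. In oligodendrocytes, which should lack these receptors, the share with a UMI was at most 0.306% for any of the 10 genes (Htr2c, median depth 4728 UMIs). Subtypes had been clustered on the same cells, so differences between subtypes are described without a test. Intervals for the sorted library are 95% exact Poisson intervals and cover counting error only.

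Htr1b, Htr1f, Htr2a and Htr2c were each the most abundant of the 10 receptors in at least 1 excitatory subtype, so the sequence just before their transcription starts is shown. The sequences come from RefSeq on GRCm38.p6, were found for 8 of the 10 genes, and run 5' to 3' up to the most upstream start in RefSeq or GENCODE. Capitals mark a GC box (GGGCGG, or CCGCCC where it lies on the other strand).
Htr1b, chr9:81633833-81634082, minus strand: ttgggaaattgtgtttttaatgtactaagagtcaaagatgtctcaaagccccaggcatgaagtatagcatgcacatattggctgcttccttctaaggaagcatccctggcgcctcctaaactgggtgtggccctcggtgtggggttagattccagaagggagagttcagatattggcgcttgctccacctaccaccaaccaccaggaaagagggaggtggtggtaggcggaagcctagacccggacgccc
Htr1f, chr16:65105855-65106034, minus strand: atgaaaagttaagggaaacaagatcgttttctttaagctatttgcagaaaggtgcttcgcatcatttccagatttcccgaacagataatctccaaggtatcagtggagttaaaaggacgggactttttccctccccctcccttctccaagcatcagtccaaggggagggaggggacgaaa
Htr2a, chr14:74640624-74640839, plus strand: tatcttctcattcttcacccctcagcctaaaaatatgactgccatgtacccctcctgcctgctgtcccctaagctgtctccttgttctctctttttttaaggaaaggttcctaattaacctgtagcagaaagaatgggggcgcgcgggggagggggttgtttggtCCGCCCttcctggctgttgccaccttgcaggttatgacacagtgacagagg
Htr2c, chrX:146962263-146962512, plus strand: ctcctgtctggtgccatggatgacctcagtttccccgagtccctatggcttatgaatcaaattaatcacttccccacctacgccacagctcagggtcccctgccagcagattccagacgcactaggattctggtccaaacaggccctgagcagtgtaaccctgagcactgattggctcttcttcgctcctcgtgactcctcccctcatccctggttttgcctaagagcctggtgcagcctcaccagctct
Short motifs (TATAAA, the E-box CANNTG and the GC box GGGCGG) were searched on both strands of the 250 bases before the RefSeq start. They occurred in 12.4%, 66.2% and 32.7% of 32851 mouse promoters. The Htr2a stretch held the only match among these 4 genes, a GC box starting 85 bases before the RefSeq start. Htr1b, Htr1f and Htr2c had no match to any of the 3 in this window.

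All 10 genes are protein coding. Htr1b, on the minus strand at chr9:81628291-81633828 (GRCm38), overlaps D430036J16Rik on the opposite strand, and Htr3a, on the minus strand at chr9:48899213-48911099, overlaps Gm32335 on the opposite strand. Htr1f spans chr16:64924729-65105854 on the minus strand, Htr2a chr14:74640840-74709494 on the plus strand, and Htr2c chrX:146962513-147197277 on the plus strand with 8 small RNA genes inside it. Whether the counting used strand is not given in the sources used here, so counts of the overlapping pairs may include reads of the partner.

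Among the Gi/o-coupled receptors, Htr1b, a receptor that often sits on axon terminals and holds back transmitter release, was highest in L2/3-Calb1 neurons. Its levels there were 42.2, 44.7 and 38.7 CPM (41.9 ± 3.03, SD, n = 3), and 46.5% ± 3.9 of the cells had a UMI. L6-Npy neurons followed with 31.2, 30.6 and 28.2 CPM, and L5-Bcl6 neurons with 21.9, 23.0 and 22.1 CPM. The mice of each of these subtypes lay apart from those of the next, with ratios of 1.39 and 1.34 between neighbours. L2/3-Rorb (12.8 ± 1.85 CPM) and L5-S100b (11.7 ± 1.33 CPM) overlapped, and L6-Syt6 neurons, the most numerous subtype, held 5.09 ± 0.677 CPM. L5-Htr2c neurons were at the bottom with 1.16, 0 and 0 CPM, which is 2 UMIs in all. The layer 6 subtypes were thus far apart, with L6-Npy at 30.0 ± 1.56 CPM.

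Htr1f, a Gi/o-coupled receptor targeted by some migraine drugs, had the opposite placing in layer 6. It reached 36.3, 38.2 and 40.6 CPM in L6-Syt6 neurons (38.4 ± 2.18 CPM), with a UMI in 55.1% ± 4.9 of the cells, against 4.65, 6.46 and 4.28 CPM in L6-Npy neurons. L5-Htr2c neurons were second at 25.6, 18.1 and 15.7 CPM, 1.94 times below L6-Syt6, and overlapped with L5-Bcl6 neurons at 13.4, 16.6 and 17.6 CPM. L2/3-Calb1 neurons, where Htr1b was highest, had the lowest Htr1f level at 1.31 ± 0.992 CPM (8 UMIs). Foxp2, a marker of corticothalamic cells, was at 235.6 ± 5.84 CPM in L6-Syt6 neurons and at most 61.3 in the other subtypes. Syt6, another marker of these cells, was at 132.1 ± 3.51 CPM there and at most 7.07 elsewhere among the subtypes. A further marker, Tle4, did not set L6-Syt6 apart, at 244.9 ± 0.932 CPM against 275.1 ± 8.75 CPM in L5-Htr2c.

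Htr1a, the inhibitory receptor that opens potassium channels on cell bodies and dendrites, was spread more evenly. L5-Bcl6 neurons had the highest levels, 24.0, 17.4 and 14.4 CPM (18.6 ± 4.89 CPM), and mouse 1 lay well above the other 2. L2/3-Rorb neurons (14.4, 11.5 and 13.6 CPM) and L5-S100b neurons (13.1, 14.3 and 11.3 CPM) overlapped with each other, and the lowest Bcl6 mouse was barely above the highest Rorb mouse. L6-Syt6 neurons held 10.5 ± 0.417 CPM and L6-Npy neurons only 3.16 ± 0.429 CPM.

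Htr5a, a Gi/o-coupled receptor with few selective ligands, varied least of the 10. It was at 12.6, 12.1 and 11.2 CPM in L5-S100b, 11.3, 11.0 and 11.6 CPM in L2/3-Rorb and 11.1, 10.1 and 11.1 CPM in inhibitory cells, and both the first and the last of these overlapped with L2/3-Rorb, although not with each other. The lowest group, L5-Htr2c, still held 4.04 ± 0.54 CPM. The top group carried 19.7% of the sum of the 8 group levels, against 70.3% for Htr2c.

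Htr1d, a close relative of Htr1b, was almost confined to 1 subtype at this depth. L5-Htr2c neurons had 4.08, 3.49 and 1.96 CPM, which is 15 UMIs and a UMI in 4.65% ± 1.4 of the cells. Inhibitory cells followed with 10 UMIs (0.534 ± 0.24 CPM), L6-Syt6 neurons had 4 and L2/3-Rorb neurons 3. No UMI was found in the other 4 subtypes of the unsorted mice. At this depth, that allows a share of cells with a detected UMI of up to 0.274% in L5-S100b (1096 cells) and 0.952% in L5-Bcl6 (315 cells). It sets no limit on cells whose transcripts went undetected. In the sorted library 1 UMI was found among 67 L5-Bcl6 neurons (1.49%).

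Of the Gq-coupled receptors, Htr2a was highest in L2/3-Rorb neurons, with 74.7, 65.7 and 73.4 CPM (71.3 ± 4.9 CPM) and a UMI in 66.3% ± 1.4 of the cells. L6-Npy neurons had 44.8, 47.8 and 40.6 CPM and L5-S100b neurons 27.9, 26.5 and 26.8 CPM. These 3 subtypes did not overlap in any mouse, with ratios of 1.61 and 1.64. L2/3-Calb1 neurons, in the same layers as L2/3-Rorb, held 16.0 ± 3.94 CPM. The other 3 subtypes, L5-Bcl6, L6-Syt6 and L5-Htr2c, were at 1.48, 1.28 and 0.815 CPM, 10.8 times or more below L2/3-Calb1.

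Htr2c, whose transcript is edited in brain and which gave the L5-Htr2c subtype its name, reached 416, 361 and 407 CPM there (394.7 ± 29.2 CPM). A UMI was present in 92.0% ± 1.3 of these cells, and in 76.7% after thinning. Inhibitory cells came next at 99.2, 102.3 and 104.3 CPM, then L2/3-Rorb neurons at 41.4, 40.4 and 37.9 CPM and L2/3-Calb1 neurons at 19.5, 12.8 and 18.4 CPM. Each of these steps was clear in every mouse, with ratios of 3.87, 2.55 and 2.36. L5-Bcl6, L6-Syt6 and L6-Npy neurons held 0.985 to 1.42 CPM. The L2/3-Rorb cells also carried the most Gad1 of the 7 subtypes, at 7.41 ± 3.42 CPM against 1051 in inhibitory cells, and the part of RNA from inhibitory cells in their Htr2c level was not tested.

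**Figure D1:**
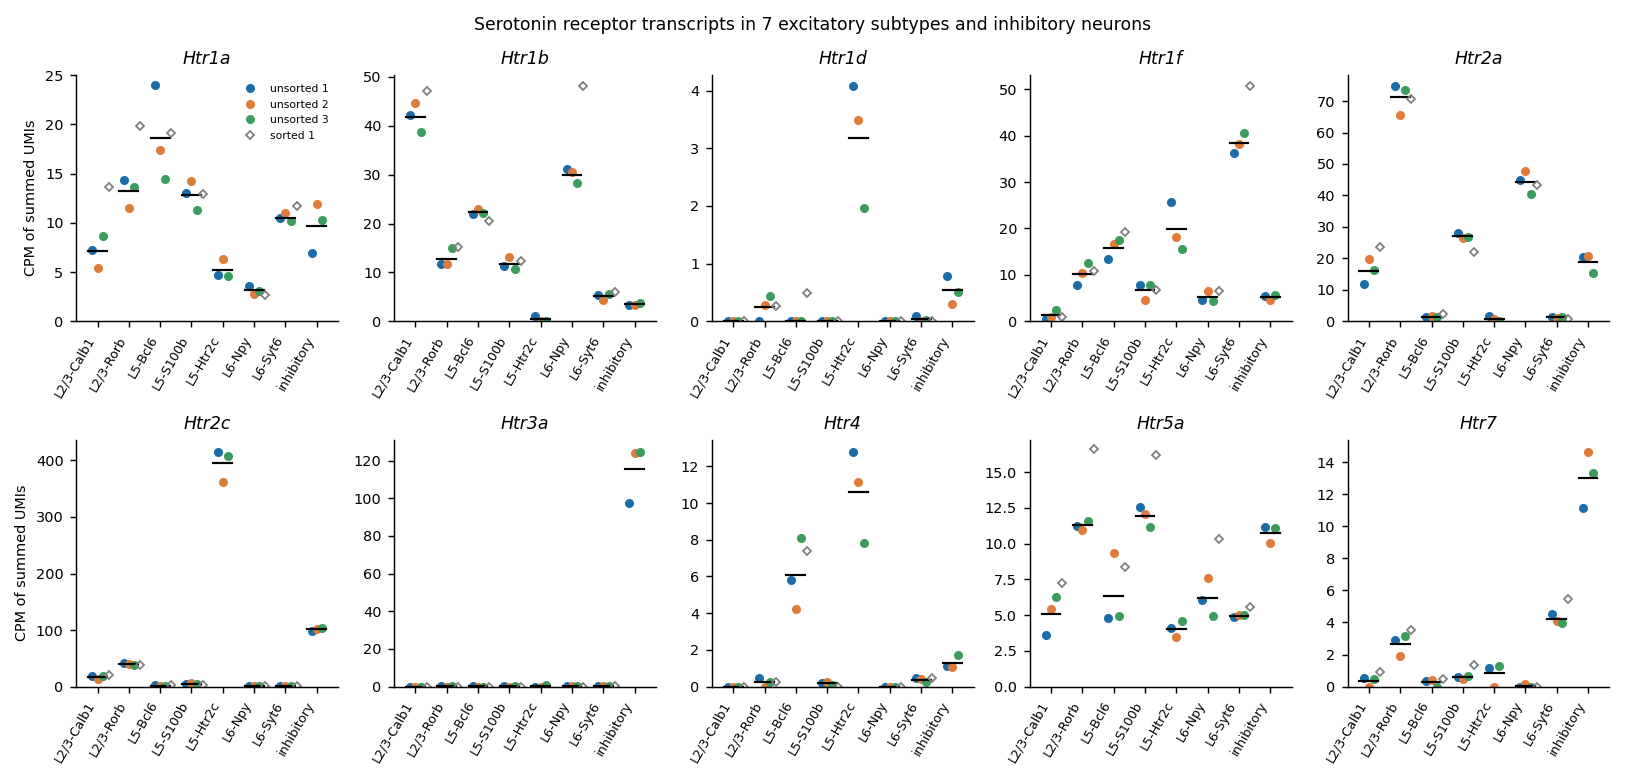
Level of each of the 10 receptors (vertical axis, CPM of summed UMIs, each panel on its own scale from 0) in the 7 excitatory subtypes and in inhibitory neurons. Filled points are unsorted mice 1 to 3, bars their mean and open diamonds the sorted library where a group had at least 10 cells in it. Htr2c and Htr3a each stood far above the rest in 1 group, at 394.7 and 115.4 CPM, whereas Htr5a ranged only from 4.04 to 11.9 CPM.

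The Gs-coupled receptors were scarce in excitatory neurons. Htr4 was found chiefly in L5-Htr2c neurons, at 12.8, 11.2 and 7.83 CPM (50 UMIs, a UMI in 15.0% ± 2.4 of the cells), and in L5-Bcl6 neurons, at 5.83, 4.26 and 8.11 CPM (45 UMIs). The mice of these 2 subtypes overlapped. The remaining 5 subtypes were at 0.369 CPM or lower. No UMI was seen in L2/3-Calb1 neurons (0 of 317 cells) or L6-Npy neurons (0 of 837). That allows a share of cells with a detected UMI of up to 0.946% and 0.358% at this depth, and does not limit cells with undetected transcripts.

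Htr7 was highest in inhibitory cells, with 11.1, 14.7 and 13.3 CPM (13.0 ± 1.78 CPM, a UMI in 15.5% ± 1.1 of cells). L6-Syt6 neurons held 4.54, 4.09 and 3.97 CPM and L2/3-Rorb neurons 2.93, 1.92 and 3.13 CPM. Both steps were free of overlap, with ratios of 3.11 and 1.58, and the other 5 subtypes were at 0.823 CPM or lower.

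Htr3a, the channel subunit, was at 97.4, 124 and 125 CPM in inhibitory cells (115.4 ± 15.6 CPM). It was present in 33.3% ± 3.2 of them, and in 25.3% after thinning. All excitatory neurons together held 29 UMIs, or 0.164 ± 0.054 CPM, and 0.344% ± 0.12 of them had one, although their median depth was higher (21362 to 23213 UMIs against 13277 to 14101). In oligodendrocytes, far shallower cells, the share was 0.0634% (1 UMI), and the source of the few UMIs in excitatory neurons was not tested. The shares of Htr1d in L6-Syt6 (0.0903%) and of Htr7 in L6-Npy neurons (0.125%) rest on 4 UMIs and 1 UMI.

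In the unsorted mice, the highest group of each receptor was the same for 10 of 10 genes when levels were averaged per cell, scaled by TMM factors, replaced by shares of cells with or without thinning, or recomputed without any 1 of the 3 mice. In the sorted library, 8 receptors had at least 20 UMIs over the 6 subtypes with at least 10 cells. L5-Htr2c and inhibitory cells, the highest unsorted groups of Htr2c, Htr4 and Htr7, were not among these 6. Within the 6 subtypes, the highest in the sorted library was also the highest in the unsorted mice for 5 of the 8 receptors. For the other 3 the intervals overlapped: Htr1b was at 48.1 CPM in L6-Npy and 47.2 in L2/3-Calb1, Htr1a at 19.9 CPM in L2/3-Rorb and 19.1 in L5-Bcl6, and Htr5a at 16.6 CPM in L2/3-Rorb and 16.2 in L5-S100b. In all, 38 pairs of a receptor and a subtype had at least 20 UMIs over the 4 libraries and at least 10 sorted cells. The sorted level lay within the range of the 3 mice in 11, above it in 20 and below it in 7. The interval of the sorted level cleared that range in 9 pairs, among them Htr1b in L6-Npy (48.1 CPM, interval 43.2 to 53.4) and Htr1f in L6-Syt6 (50.7 CPM, interval 48.0 to 53.4), both higher. Htr2a in L5-S100b was the only 1 of the 9 that was lower (22.1 CPM, interval 19.3 to 25.1). Sorting, the pooled mice and the deeper cells of that library cannot be told apart.

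The leading receptor differed between subtypes. Htr1b led in L2/3-Calb1 and in L5-Bcl6, where it overlapped with Htr1a. Htr2a led in L2/3-Rorb, L5-S100b and L6-Npy, Htr2c in L5-Htr2c and Htr1f in L6-Syt6. Among inhibitory cells Htr3a led and overlapped with Htr2c.

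Summed by signalling class, the Gi/o-coupled receptors made up 89.0% ± 1.4 of the receptor UMIs in L6-Syt6 neurons and 87.1% ± 2.86 in L5-Bcl6 neurons. The Gq-coupled pair made up 90.0% ± 1.62 in L5-Htr2c neurons and 68.7% ± 2.14 in L2/3-Rorb neurons. L6-Npy neurons were divided almost evenly, at 49.3% Gi/o and 50.3% Gq. The 10 receptors together came to 439.8 ± 33.4 CPM in L5-Htr2c neurons and to 66.2 ± 1.89 CPM in L6-Syt6 neurons, the lowest of the 7 subtypes.

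**Figure D2:**
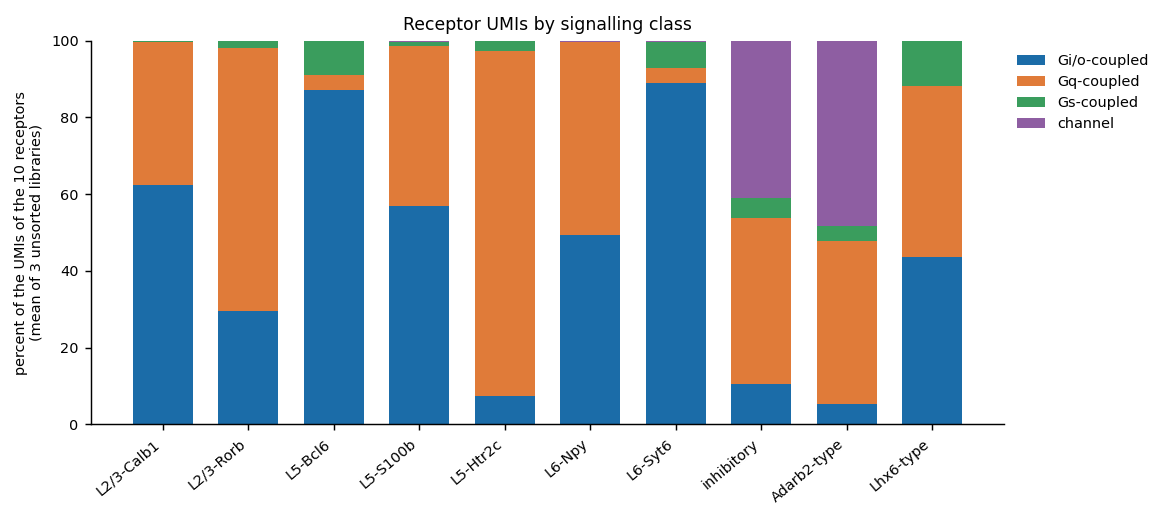
Share of the UMIs of the 10 receptors (vertical axis, percent, mean of the 3 unsorted mice) held by Gi/o-coupled, Gq-coupled and Gs-coupled receptors and by the channel subunit, in 7 excitatory subtypes, all inhibitory cells and 2 classes of them. Gi/o-coupled receptors filled 89.0% of the bar in L6-Syt6 and Gq-coupled receptors 90.0% in L5-Htr2c, and the channel appears in inhibitory cells and their Adarb2-type class.

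Single neurons often carried more than 1 receptor. L2/3-Rorb cells had UMIs of 2.02 ± 0.105 of the 10 genes on average and 12.4% ± 1.99 had none, while L6-Syt6 cells had 1.09 ± 0.0569. To hold depth fairly constant, pairs of receptors were compared in cells of 15000 to 30000 UMIs. Of 70 such comparisons in excitatory subtypes, 21 had the second receptor more often in cells with the first in 3 of 3 mice and 10 had it less often in 3 of 3, and the pairs given here are examples chosen after their values were seen. Among 493 such L2/3-Rorb cells, Htr2c was detected in 49.0% ± 3.93 of the cells with Htr2a and in 25.4% ± 3.11 of those without it. The difference of 23.6 points (SD 1.22) had the same sign in 3 of 3 mice, and the median depths were 21779 and 20427 UMIs. In L5-S100b cells, Htr2a was detected in 58.6% ± 5.72 of the cells with Htr1f and 32.8% ± 2.94 of the others, again in 3 of 3 mice. In L2/3-Calb1 cells Htr2a was found in 15.0% ± 3.52 of the cells with Htr1b and 30.0% ± 4.29 of the others, lower in 3 of 3 mice, while of the 10 pairs compared in this subtype 2 were higher and 5 lower in 3 of 3. Residual depth and divisions within a subtype were not tested as sources of these differences.

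The first comparison with a test asked which receptors differ between excitatory and inhibitory neurons of the same 3 mice. Of the 10 receptors, 9 passed the filter on low counts, 2 were higher in excitatory neurons, 4 were lower and 3 were not called (edgeR quasi-likelihood test, Benjamini-Hochberg adjusted p below 0.05, with a change of 0.5 or more on the log2 scale). Over all 15266 genes tested, 40.4% were called, 19.7% higher and 20.6% lower, so a called receptor is not unusual here. The median log2 fold change was -0.59 over the 9 receptors and 0.01 over all genes. Of the 7765 excitatory cells, 4319 were L6-Syt6 neurons, and these weigh most in the excitatory sum.

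Htr1f was higher in excitatory neurons, at 24.0, 25.4 and 26.8 CPM against 5.49, 4.58 and 5.64 CPM (log2 fold change 2.38, SE 0.11, edgeR adjusted p = 4.18e-22). Htr1b was higher as well, at 11.1, 10.8 and 11.0 CPM against 3.30, 3.36 and 3.76 CPM (1.77, SE 0.149, edgeR adjusted p = 1e-13). For both genes the mice of the 2 classes were far apart.

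Htr3a showed the largest difference of the 9, with a log2 fold change of -9.31 (SE 0.111, edgeR adjusted p = 3.94e-43). Htr2c was lower in excitatory neurons, at 17.0, 13.7 and 16.0 CPM against 99.2, 102.3 and 104.3 CPM (-2.61, SE 0.0585, edgeR adjusted p = 3.03e-33), although its level in the L5-Htr2c subtype was 3.87 times that of inhibitory cells. Htr7 was at 2.93, 2.61 and 2.65 CPM in excitatory neurons against 11.1, 14.7 and 13.3 CPM (-2.15, SE 0.148, edgeR adjusted p = 2.32e-16). Htr5a differed least among the called receptors, at 6.62, 6.88 and 6.50 CPM against 11.1, 10.1 and 11.1 CPM (-0.59, SE 0.124, edgeR adjusted p = 6.36e-05).

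Htr2a had an adjusted p of 0.0248 in edgeR but a log2 fold change of -0.23 (SE 0.0903), under the size limit, although its level ranged from 0.815 to 71.3 CPM over the 7 subtypes. Htr1a (0.22, SE 0.125, edgeR adjusted p = 0.12) and Htr4 (-0.59, SE 0.375, edgeR adjusted p = 0.164) were not called. Htr1d, with 22 and 10 UMIs, fell below the filter.

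**Figure D3:**
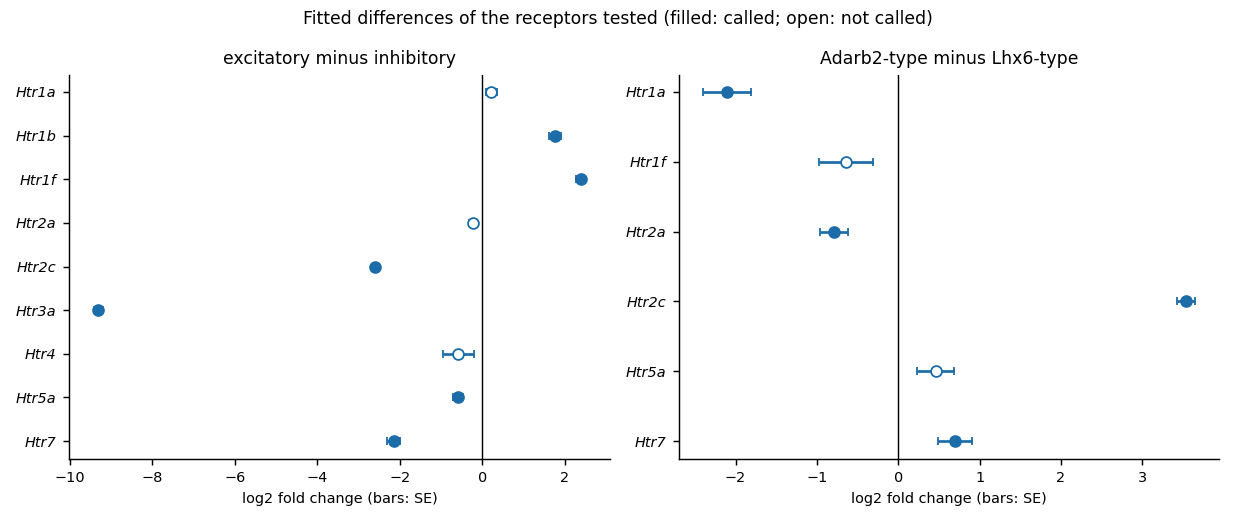
Fitted log2 fold changes (horizontal axis, bars 1 SE) of the receptors tested between excitatory and inhibitory neurons (left) and between Adarb2-type and Lhx6-type inhibitory neurons (right), from 3 unsorted mice. Filled points were called, and Htr3a is left out on the right because Lhx6-type cells had no UMI of it.

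Other genes of the serotonin system were counted in the same fit. Of 4 further receptor genes (Htr2b, Htr3b, Htr5b and Htr6) only Htr6 passed the filter and it was not called. Among 7 genes of synthesis, transport and breakdown, 5 were tested, 2 were higher in excitatory neurons and 2 lower. Maob, which breaks down amines, was at 26.2 ± 0.919 CPM against 1.49 ± 0.306 (log2 fold change 4.23), while its relative Maoa was lower in excitatory neurons (-0.60). Tph1 and Tph2, the enzymes that make serotonin, were called in opposite directions (2.28 and -2.72) at no more than 1.06 CPM in either class.

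Downstream genes showed a mixed picture. Of 5 Gi/o genes 1 was higher, the alpha subunit Gnaz (0.98), and of the 3 GIRK potassium channel genes tested 2 were higher, Kcnj6 (0.94) and Kcnj9 (0.89). Of 5 Gq genes tested 2 were higher, Plcb2 (1.08) and Plcb4 (0.58). The 8 Gs genes had 2 higher, the adenylyl cyclases Adcy1 (1.63) and Adcy9 (1.44), and 2 lower, of which Adcy8 changed most (-1.02). Among 7 receptor partners, 2 were higher, Rgs4 (2.40), which shortens G protein signals, and the synaptic scaffold Dlg4 (0.67).

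The second comparison divided the inhibitory cells of the unsorted mice by 2 transcripts that mark their origin. Adarb2 marks interneurons of the caudal ganglionic eminence, which include Vip and Lamp5 cells, and Lhx6 marks those of the medial eminence, which include Pvalb and Sst cells. Adarb2-type cells numbered 272, 289 and 234 and Lhx6-type cells 148, 143 and 130, with median depths of 11141 and 17789 UMIs. Of the 10 receptors 7 were tested, 3 were higher in Adarb2-type cells, 2 were lower and 2 were not called. Over 11515 genes, 21.0% were called, 11.0% higher and 10.0% lower, and the median log2 fold change was 0.46 over the 7 receptors, also with Htr3a at its lower bound, and 0.01 over all genes.

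Htr3a was at 183, 221 and 230.3 CPM in Adarb2-type cells, with a UMI in 52.8% ± 4.4 of them, and had no UMI in Lhx6-type cells of any mouse. Against a floor of 3 UMIs over the Lhx6-type group (0.387 CPM) it was at least 546-fold higher (2154 UMIs). It is among the 3 receptors called higher, but it passed the filter on low counts through the Adarb2-type cells alone. The bound is therefore given as a description, without a p-value. Htr2c was at 168, 170.0 and 175 CPM against 14.1, 18.3 and 11.5 CPM (log2 fold change 3.53, SE 0.111, edgeR adjusted p = 1.36e-19). Both differences were large next to the spread between mice. Htr7 was at 13.0, 18.9 and 15.3 CPM against 9.31, 8.77 and 11.0 CPM (0.69, SE 0.207, edgeR adjusted p = 0.00953), and it was no longer called without mouse 2 (0.47, edgeR adjusted p = 0.173) or in 2 other settings, with adjusted p-values of 0.00373 to 0.399 over the 9 alternatives.

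Htr1a was lower in Adarb2-type cells, at 4.12, 6.01 and 1.59 CPM against 10.8, 19.4 and 22.1 CPM (-2.11, SE 0.292, edgeR adjusted p = 1.37e-06). Htr2a was lower too, at 15.0, 15.9 and 9.88 CPM against 25.3, 24.0 and 21.3 CPM (-0.79, SE 0.169, edgeR adjusted p = 0.000474), although DESeq2 did not call it (adjusted p = 0.113, the highest of the 9 alternatives, which began at 3.63e-05). Htr1f (-0.65, SE 0.331, edgeR adjusted p = 0.134) and Htr5a (0.46, SE 0.23, edgeR adjusted p = 0.126) were not called. Htr1b, Htr1d and Htr4 fell below the filter. The 8 UMIs of Htr1d were all in Lhx6-type cells, at least 3.51-fold above the floor of 0.294 CPM over the Adarb2-type group, and 20 of 24 UMIs of Htr4 were in Adarb2-type cells.

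Among the other lists, none of the 4 further receptor genes was tested here and 1 gene of synthesis, transport and breakdown was tested without a call. Gnao1 (0.70) and Gnai1 (0.69) were higher in Adarb2-type cells and Gnaz (-1.44) lower, out of 5 Gi/o genes. Of 3 GIRK genes tested, Kcnj6 (0.97) and Kcnj3 (0.67) were higher. Of 4 Gq genes tested 1 was lower, Plcb1 (-0.88), and of 8 Gs genes 2 were lower, Adcy8 (-1.33) and Adcy2 (-0.62). Of 7 partners, the scaffold Mpdz was higher (1.56) and Rgs4 (-2.58) and Arrb1 (-0.58) were lower.

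Of the 1283 inhibitory cells of the 4 libraries, 1005 could be given to Pvalb, Sst, Vip or Lamp5 by their leading transcript, whatever their Adarb2 or Lhx6 counts. Levels in the unsorted mice are given as a description. There 481 of 487 Vip cells and 82 of 85 Lamp5 cells were of the Adarb2-type class. Vip cells (157, 180 and 150 cells) had Htr3a at 195, 231 and 229.6 CPM and Htr2c at 198, 177 and 185 CPM. The 232 Adarb2-type cells given to neither Vip nor Lamp5 had similar or higher levels, with Htr3a at 209.8, 279.7 and 294.4 CPM and Htr2c at 185, 220.1 and 215 CPM. Sst cells (138, 128 and 121 cells) had the highest Htr1a of the 4, at 12.0, 22.0 and 23.1 CPM.

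Htr2a gave a different picture. It was at 67.7, 67.0 and 73.0 CPM in Pvalb cells, a group of 41 cells, and at 90.3, 77.0 and 50.2 CPM in Lamp5 cells, a group of 85. In L2/3-Rorb neurons it was at 65.7 to 74.7 CPM. Vip cells had 0, 2.15 and 1.18 CPM. Like Vip cells, nearly all Lamp5 cells were of the Adarb2-type class. Lamp5 cells also held more Htr1f (28.5, 19.7 and 23.6 CPM against 2 UMIs in Vip cells) and Htr1b (13.4 ± 2.78 against 0.83 ± 0.461 CPM), and far less Htr2c (8.37 ± 5.67 CPM).

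**Figure D4:**
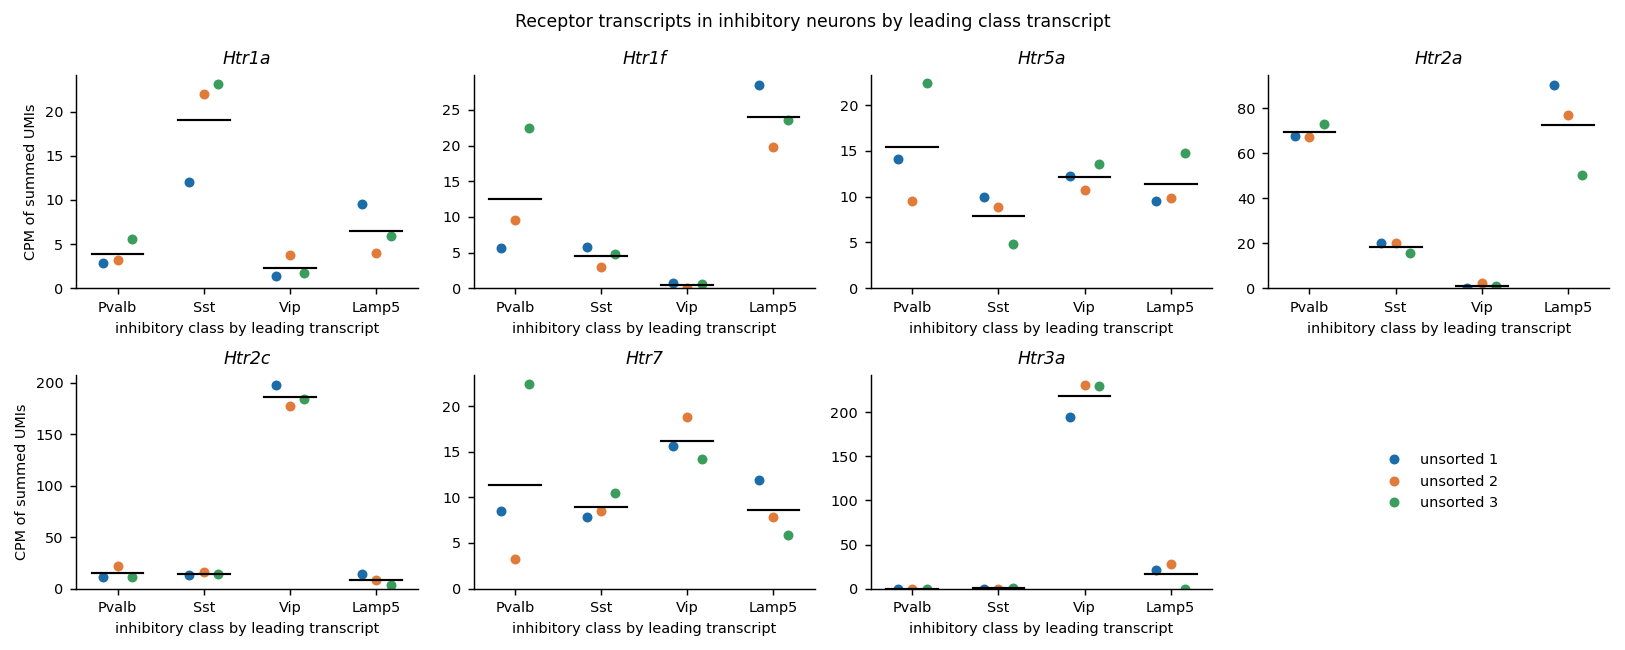
Levels of 7 receptors (vertical axis, CPM of summed UMIs) in inhibitory cells assigned to Pvalb, Sst, Vip or Lamp5 by their leading transcript. Points are the 3 unsorted mice and bars their mean, and Htr2c and Htr3a were high in Vip cells while Htr2a was high in Pvalb and Lamp5 cells.

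In single Adarb2-type cells of 8000 to 20000 UMIs, 10 pairs were compared, of which 2 were higher and 3 lower in 3 of 3 mice. Htr3a was detected in 11.6% of the cells with Htr2a and 56.6% of those without it, a difference of -44.9 points (SD 9.1) that was lower in 3 of 3 mice. Htr2c showed the same, at 24.2% against 58.4%. Htr3a and Htr2c were found together more often (59.1% of the cells with Htr2c against 43.2% of the others, higher in 3 of 3 mice). Among Vip cells alone the shares with Htr3a were 55.5% and 54.6%, a difference of 0.96 points with an SD of 7.87.

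The third comparison held the subtype fixed in all 4 libraries. It asked whether receptor levels differed between neurons with 5 or more UMIs of the viral barcode and those with 0. It was run in L6-Syt6, L6-Npy, L5-S100b and L2/3-Rorb, where each library had at least 10 cells of both kinds. A count of 0 does not show that a neuron lacked the barcode. The paper reports many zero counts of barcodes in its single-cell libraries. In the library sorted for EGFP, 94 L6-Syt6, 49 L6-Npy, 24 L5-S100b and 15 L2/3-Rorb cells had a count of 0. Barcodes of the 5 targets are counted as 1 feature in the matrices used here, so targets are not separated. The paper instead describes the 5 barcodes as separate entries of the reference. It also lists barcode count matrices among its available data, and these were not used here. None of the receptors tested (7, 4, 6 and 6 in these subtypes, in that order) was called by edgeR. The share of all genes called was 1.67%, 0.801%, 2.70% and 0.139% (218, 83, 310 and 14 genes), 3307, 1096, 1970 and 681 genes had an unadjusted p under 0.05, and DESeq2 called 178, 11, 143 and 0. None of the genes in the other 7 lists was called either. Barcode-high cells were deeper than barcode-zero cells in 16 of 16 pairs of library and subtype, for instance 25553.5 to 34389 against 19306.5 to 28185 UMIs in L5-S100b, and the part of depth in these differences was not tested.

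Htr2a in L2/3-Rorb neurons came closest. It was at 81.6, 77.4, 76.7 and 71.4 CPM in barcode-high cells of mice 1 to 3 and the sorted library, against 57.6, 48.6, 61.1 and 53.8 CPM in barcode-zero cells. The 2 sets did not overlap (log2 fold change 0.49, SE 0.127, unadjusted p = 0.000314, edgeR adjusted p = 0.0751), and the barcode-zero values rest on 149 UMIs. Without the filter on low counts it was called (0.53, edgeR adjusted p = 0.024), and over the other alternatives the adjusted p ran from 0.0961 to 1. Htr2c in the same cells was higher in 3 of 4 libraries (0.52, SE 0.185, edgeR adjusted p = 0.378).

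For Htr1f the direction differed between subtypes. In L6-Syt6 neurons the barcode-high levels were 34.1, 37.2, 36.7 and 49.0 CPM against 38.9, 39.6, 43.2 and 54.6 CPM, lower in 4 of 4 libraries (-0.13, SE 0.0512, edgeR adjusted p = 0.158). In L5-S100b neurons they were 8.62, 4.78, 8.36 and 6.89 CPM against 2.47, 2.16, 5.80 and 5.56 CPM, higher in 4 of 4 (0.94, SE 0.359, edgeR adjusted p = 0.139), with 15 UMIs in the barcode-zero cells. In L2/3-Rorb neurons they were higher in 4 of 4 (0.70, SE 0.347, edgeR adjusted p = 0.724), and in L6-Npy neurons higher in 2 of 4 (-0.14, SE 0.343, edgeR adjusted p = 0.938). A test of equal barcode effects in the 4 subtypes called Htr1f (edgeR adjusted p = 0.0416), as it did 7.36% of the 12081 genes tested. Without mouse 1, 2 or 3 the adjusted p was 0.177, 0.226 or 0.133, and without the sorted library it was 0.0351. Htr1a was next (edgeR adjusted p = 0.0924), lower in 4 of 4 libraries in L6-Syt6 and higher in 4 of 4 in L5-S100b and L6-Npy. In L6-Npy that direction rests on 2 UMIs of Htr1a in the barcode-zero cells of each library. The sorted pair there was 1.92 against 1.70 CPM, and Htr1a fell below the filter of the test within L6-Npy. The other 5 receptors tested across subtypes had edgeR adjusted p-values of 0.428 to 0.914.

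**Figure D5:**
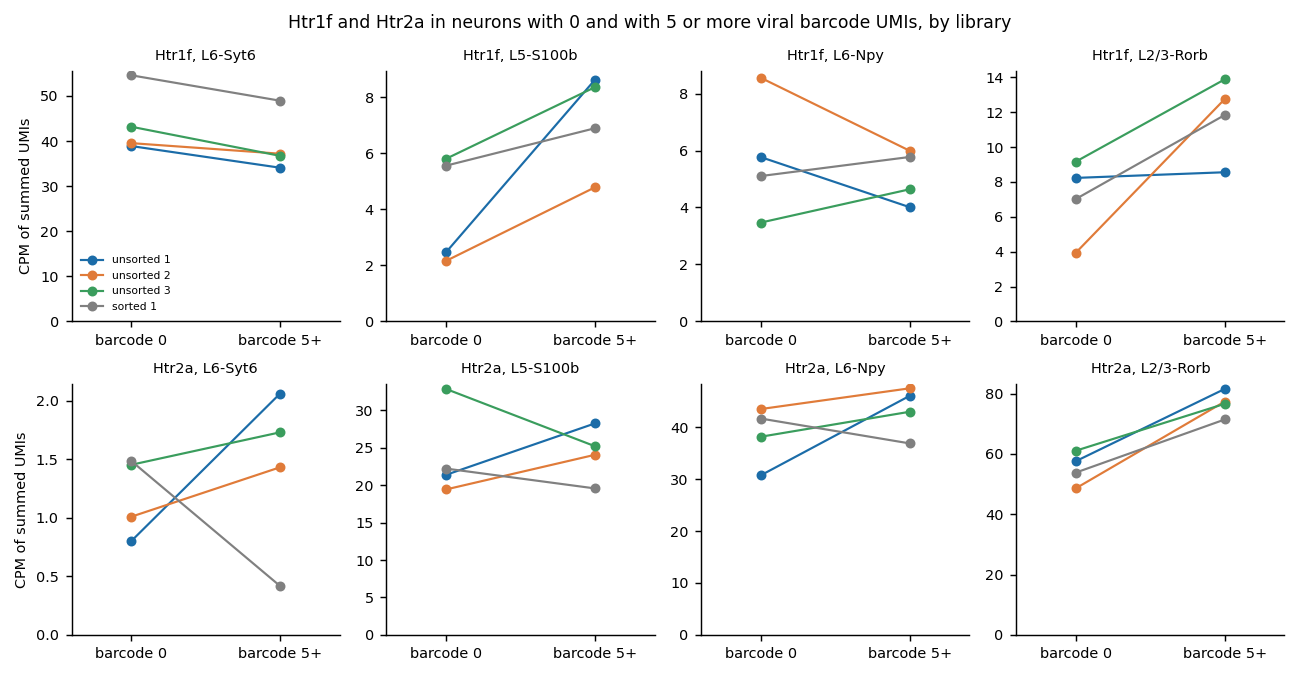
Levels of Htr1f (top row) and Htr2a (bottom row) on the vertical axis (CPM of summed UMIs, from 0) in neurons with 0 and with 5 or more viral barcode UMIs, in 4 subtypes. Each line joins the 2 values of 1 library, and the lines for Htr1f fell in L6-Syt6 and rose in L5-S100b and L2/3-Rorb in 4 of 4 libraries.

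Genes with the most similar pattern were looked for over the 8 groups (Pearson r of mean log2 levels with a pseudocount of 1 CPM, 10406 genes, given as a description over 8 points from the same libraries). Htr3a was closest to Dlx6, a transcription factor gene of interneurons (r = 1.00), and Htr2a to Gm17586, Zfp804b and Bicdl1 (0.98, 0.98 and 0.97). Htr1b was closest to Ski (0.98) and Lyst (0.98), Htr1a to Soat1 (0.95), Htr5a to Lrp8 (0.98), Htr7 to Lgi2 (0.97) and Htr4 to Wdr11 (0.97). For Htr2c the nearest were Mfsd14b (0.96) and Rapgef3 (0.96), for Htr1d Acvrl1 (0.99), and for Htr1f Ccdc25 (0.93). Between receptors, the most alike were Htr1d with Htr2c (0.83), Htr3a with Htr7 (0.79) and Htr1d with Htr4 (0.72).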

How the data were processed

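Cells of the vmPFC of injected mice were profiled with 10x Genomics 3' chemistry as 4 libraries, of which unsorted mice 1, 2 and 3 served as replicates and the sorted library held 3 pooled mice. Labels name the unsorted libraries by mouse, while the protocol loads the unsorted cells in 3 lanes, so p-values measure the spread between these 3 libraries. The deposited matrices hold UMI counts per gene and cell that the authors made with Cell Ranger 3.0.2 on mm10 with the viral barcode added, and no strand setting is stated. The deposited cell table gives the authors' subtype names, total counts and the percent of mitochondrial UMIs of 9368 excitatory neurons, and the labels name Seurat 3.1.4 and Scanpy 3.0.46. Inhibitory and glial cells were chosen by transcripts among cells of 500 to 8000 genes, 1000 to 60000 UMIs and at most 20% mitochondrial UMIs. No doublet caller was run, and 201 of the 1283 inhibitory cells held Slc17a7 UMIs.

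Raw counts were summed per library and group and tested with edgeR 4.0.16 (R 4.3.3, TMM, filterByExpr, quasi-likelihood F test) with the library as a block. The pairing comes from the shared library, and deviations of the 2 classes correlated at 0.245, 0.104 and 0.312 (excitatory and inhibitory) and 0.141, 0.0369 and 0.203 (Adarb2-type and Lhx6-type). A call needed an adjusted p under 0.05 over all genes and a change of 0.5 or more on the log2 scale, or the adjusted p alone for the test across subtypes. DESeq2 1.42.0, other scalings and filters, other cell rules and leaving out libraries were alternatives. The edgeR steps were tested on simulated counts. Levels, shares and figures used Python 3.11.15, numpy 2.4.6, pandas 2.3.3, scipy 1.17.1 and matplotlib 3.10.9. The receptors, lists and tests were chosen with earlier results of these data known. All 10 receptors are named, with the 3 genes of most similar pattern for each (fewer are printed) and at most 3 called genes of each list with the largest fold changes.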

Additional observations from a re-analysis of the deposited data

Results flagged for a closer look

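The barcode effect on Htr1f differed between the 4 subtypes in a test of equal effects (edgeR adjusted p = 0.0416), with fitted log2 fold changes of -0.12 in L6-Syt6, -0.14 in L6-Npy, 0.95 in L5-S100b and 0.72 in L2/3-Rorb. It was lower in barcode-high cells of 4 of 4 libraries in L6-Syt6 and higher in 4 of 4 in L5-S100b and in L2/3-Rorb. The adjusted p was 0.177, 0.226 and 0.133 without mouse 1, 2 and 3 and 0.0351 without the sorted library. Barcode-zero cells held 27 UMIs of Htr1f in L6-Npy, 15 in L5-S100b and 19 in L2/3-Rorb, and barcode-high cells were deeper in every library of all 4 subtypes, whose part in the difference was not tested. In a check of 23 sets of library differences for 1 library standing apart, none did.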

How the results depend on the processing

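Of 346 values of a receptor in a comparison under an alternative, 325 kept their direction and their side of the threshold. The 15 that changed sign were called in neither setting. For Htr1b in L6-Syt6 these were no replicate block (0.058), DESeq2 (0.016) and no filter (0.0036). The others came from leaving out 1 library, which gave log2 fold changes of -0.0065 to 0.40 for Htr1a between excitatory and inhibitory cells, -0.081 to 0.090 for Htr1b and -0.00038 to 0.31 for Htr7 in L6-Syt6, -0.28 to 0.040 for Htr1f and -0.30 to 0.73 for Htr5a in L6-Npy, -0.084 to 0.26 for Htr2a, -0.020 to 0.26 for Htr2c and -0.073 to 0.45 for Htr5a in L5-S100b, and -0.033 to 0.43 for Htr1b in L2/3-Rorb. Between Adarb2-type and Lhx6-type cells, Htr7 lost its call with DESeq2 (0.68), without mouse 2 (0.47) and at 2 or more UMIs of the marker (0.53), Htr2a lost it with DESeq2 (-0.81), and Htr1f gained one at 2 or more UMIs (-0.90, adjusted p = 0.0458, 0.12 to 0.708 otherwise).

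For counts of genes, the test of excitatory against inhibitory cells stayed within 1.5 times of 6164 in every setting, and that of Adarb2-type against Lhx6-type cells (2423) fell to 1481 with DESeq2. Scaling by library size alone moved the median log2 fold change of all genes between excitatory and inhibitory cells from 0.009 to -0.095. The barcode tests moved most. With no replicate block they called 75 genes in L6-Syt6, 0 in L6-Npy, 56 in L5-S100b and 0 in L2/3-Rorb, with barcode-positive cells of 1 or more UMIs 27, 31, 202 and 6, and with DESeq2 11 in L6-Npy, 143 in L5-S100b and 0 in L2/3-Rorb. L2/3-Rorb reached 28 without the filter. Leaving out 1 library gave 28 to 309, 45 to 75, 178 to 289 and 2 to 33, and 334 to 1259 for the test across subtypes. The replicate block changed no receptor's call, and the causes of these shifts were not tested. Depth limits Htr1d, Htr4 and the barcode-zero cells, some of which held under 20 UMIs of a receptor.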

Other observations

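Outside the neurons a few receptors appeared at low counts. Oligodendrocyte precursors held Htr5a at 5.68, 7.12 and 8.31 CPM (39 UMIs, in 2.94% ± 0.7 of the cells), a level within the range of the excitatory subtypes, and Htr1f at 1.03, 6.61 and 4.75 CPM (23 UMIs). Endothelial cells held Htr2a at 2.88, 4.33 and 5.11 CPM (21 UMIs). Mural cells held Htr1b at 3.91, 13.8 and 9.72 CPM (14 UMIs, in 2.32% ± 1.2 of the cells), while endothelial cells had no UMI of it. Oligodendrocytes had no UMI of Htr5a in 1687 cells, which allows a share with a detected UMI of up to 0.178% at their median depth of 4728 UMIs.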
